A study of Ovis aries with 6 samples.

Results

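Genes for the enzymes that add or remove methyl and acetyl groups on histones and DNA were compared between ovaries of Hu sheep and Mongolian sheep. Members were chosen by symbol alone: DNA methyltransferases (DNMT), TET dioxygenases, lysine methyltransferases (KMT, SETD, EZH), lysine demethylases (KDM), arginine methyltransferases (PRMT), acetyltransferases (KAT, CREBBP, EP300), histone deacetylases (HDAC) and sirtuins (SIRT). The rule found 67 genes, 1 row each, among 14480 rows of the gene table, of which 10189 carry a symbol. The study holds 6 RNA-seq libraries of polyadenylated RNA from ovary in estrus, 3 of them from Hu ewes and the other 3 from Mongolian ewes; the labels give no age, treatment or genotype for either breed. The title of the series speaks of ovarian exosomes, whereas the sample labels give ovary as the tissue; which source the RNA had is not settled by the labels. The Hu breed is prolific, whereas Mongolian ewes mostly bear single lambs. Whether the replicates are separate animals is not stated, so the p-values measure only the spread between these libraries, which may be technical. Values are FPKM (fragment counts divided by the length of the transcript and by the total of the library), and 3 values for a breed are replicates 1, 2 and 3 in that order.

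DNA methyltransferases place methyl groups on cytosine and TET enzymes oxidise them. Many KMT, SETD and EZH enzymes methylate lysines of histone tails, which marks promoters, enhancers or silenced genes, and KDM enzymes remove those marks. CREBBP, EP300 and the KAT enzymes acetylate histones, while the zinc-dependent HDACs and the NAD-dependent sirtuins remove acetyl groups. In the ovary these enzymes are known for roles in oocyte growth, in the response of granulosa cells to gonadotropins and in luteinisation.

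The libraries were not equal in how much they listed. Between 6500 and 13342 genes stood above 0 FPKM in the Hu libraries and between 10547 and 11463 in the Mongolian libraries, and 2 assembled genes without a symbol held 53.3% to 76.5% of the summed FPKM in Hu, against 74.2% to 79.7% in Mongolian. Read counts were not used here, the depth is unknown, and a value of 0 is described only as listed at 0. Of 10 lists of ovarian cell markers, stroma and smooth muscle were abundant in all 6 libraries. The granulosa markers INHA and INHBA and the luteal gene CYP11A1 were listed in all 6 libraries, and the theca gene CYP17A1 in all but Hu 2. Other granulosa markers were partly at 0. HSD17B1 was at 0, 0 and 0.629 FPKM in Hu, against 3.69, 2.46 and 6.52 FPKM in Mongolian, and FSHR was at 0 in Hu 1, Mongolian 1 and Mongolian 2. The luteal list summed to 98.7, 21.4 and 158 FPKM in Hu, against 15.1, 13.6 and 379 FPKM in Mongolian. Much of the larger sums came from single genes. OXT was at 78.6, 9.74 and 42.1 FPKM in Hu, against 0, 0 and 305 FPKM in Mongolian. PTGFR was at 0, 0 and 53.7 FPKM in Hu, against 5.36, 2.45 and 2.23 FPKM in Mongolian. AMH, CYP19A1 and FOXL2 had no row by symbol, and oocyte markers were near absent: 2 of 10 were in the table, with a summed level of at most 0.324 FPKM in Hu, against 0.888 FPKM in Mongolian. Endothelial markers (6 of 6 in the table) summed to 14.8 to 22.0 FPKM in Hu, against 5.14 to 12.1 FPKM in Mongolian. These sums did not overlap, but that rested on LYVE1 in Hu 2, at 8.89 FPKM. Every other endothelial marker was lower in Hu 2 than in Mongolian 2, PECAM1 at 2.24 against 2.32 FPKM and CDH5 at 0.165 against 1.28 FPKM. TEK was at 0 in Hu 1, Hu 2 and Mongolian 3, KDR in Hu 1 and LYVE1 in Mongolian 1 and Mongolian 3. PECAM1, VWF and CDH5 were above 0 in all 6 libraries. The 2 listed markers of surface epithelium, KRT18 and MSLN, were at 0 in every Hu library and summed to 0.407 to 3.25 FPKM in Mongolian. The part of these cell types in the enzyme values below was not tested. If the RNA is that of whole ovary, fewer cells of a type and less RNA per cell cannot be told apart.

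More of these enzyme genes were listed at 0 in the Hu than in the Mongolian libraries, with the exception of Hu 3. Of the 67 genes, 46, 52 and 66 were listed above 0 in Hu 1, Hu 2 and Hu 3, and 60, 64 and 60 in Mongolian 1, 2 and 3. All 3 Hu libraries listed 40 of the 67 genes, and those 40 were also listed in every Mongolian library, whereas all 3 Mongolian libraries listed 57. Another 9 genes were at 0 in Hu 1 alone, 4 in Hu 2 alone, and 4 in Hu 1 and Hu 2 together.

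Of the 67 genes, 62 passed the filter for testing (3 or more of the 6 libraries with 0.5 FPKM or more). Among these, 72.6% and 82.3% were listed in Hu 1 and Hu 2, beside 61.0% and 74.1% of all 9971 genes tested, and all 62 were listed in Hu 3, beside 99.3%. Hu 1 listed the smallest share and Hu 2 the next smallest, both of the enzyme genes and of all genes. The 5 untested genes were SETD4, SETD9, SIRT4, SIRT6 and HDAC10, and each reached 2.91 FPKM at most in any library.

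**Figure D1:**
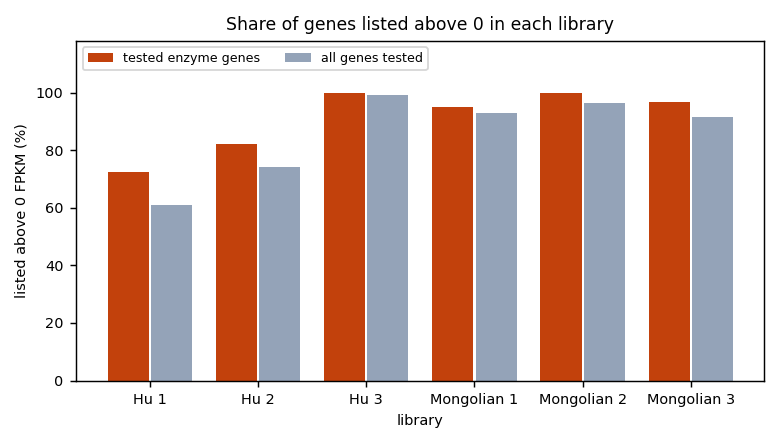
Share of the 62 tested enzyme genes (orange) and of all 9971 genes tested (grey) listed above 0 FPKM, in percent (y axis), in each library (x axis). Hu 1 and Hu 2 listed the smallest shares of either, and Hu 3 listed all 62 enzyme genes.

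The summed level of the 67 genes was 172, 209 and 428 FPKM in Hu, against 358, 305 and 488 FPKM in Mongolian, so the breeds overlapped through Hu 3. As a share of all FPKM outside the 2 dominant assembled genes, the enzymes made up 0.190%, 0.202% and 0.203% in Hu, against 0.292%, 0.239% and 0.425% in Mongolian, with no overlap. The 3 Hu libraries were close to each other on this measure although their sums differed, and the Mongolian libraries were spread over a wider range. Across the 62 tested genes, the order of levels was more alike among Mongolian libraries (Spearman's rho across genes 0.76 to 0.81) than among Hu libraries (0.50 to 0.54), with 0.51 to 0.73 between breeds. These are correlations over 62 genes that share libraries, and they are given as a description.

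**Figure D2:**
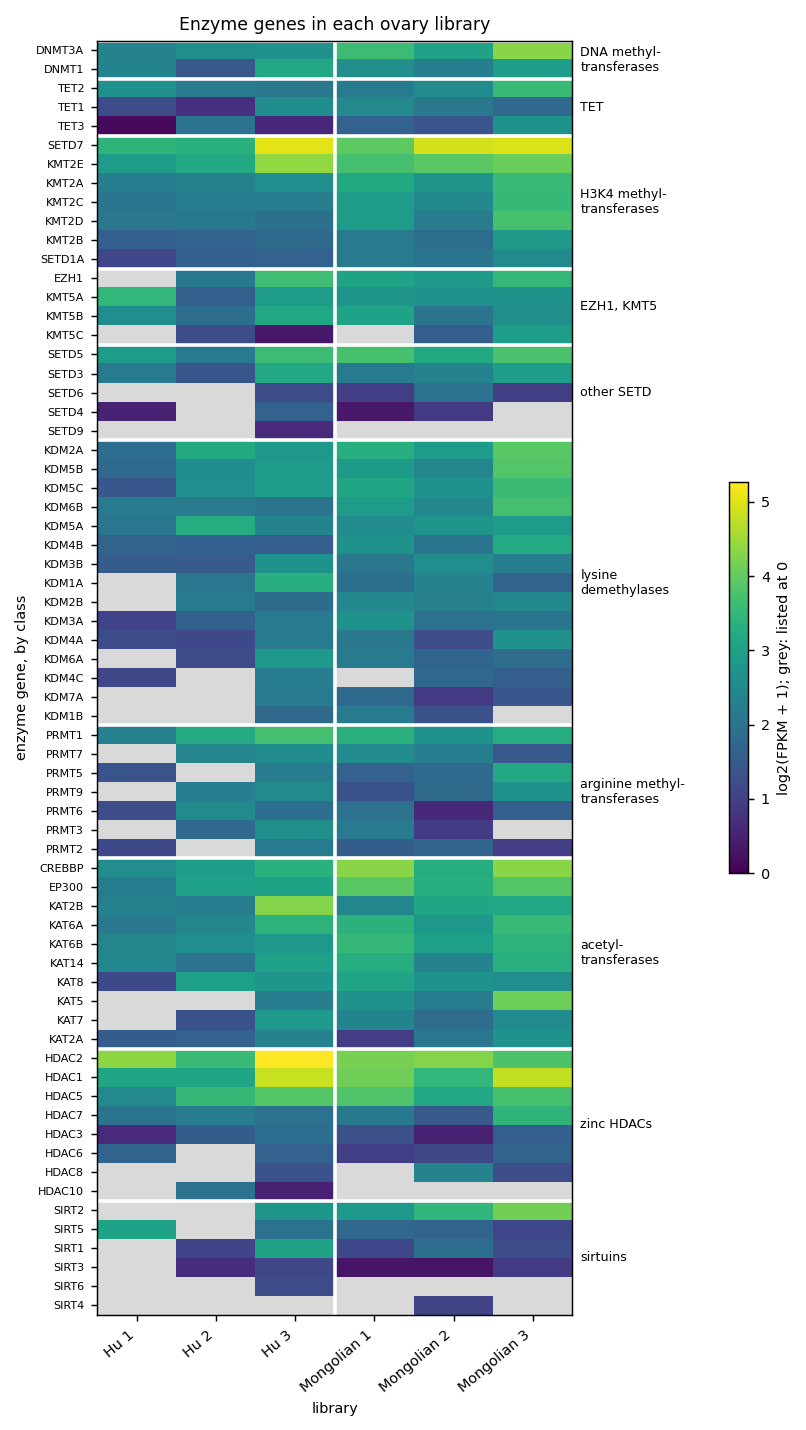
Level of each of the 67 enzyme genes (rows, grouped by class) in each library (columns), as log2(FPKM + 1) on the colour scale, with grey for genes listed at 0. Grey cells gather in Hu 1 and Hu 2, and HDAC2, HDAC1, SETD7 and KMT2E are bright in several libraries of both breeds.

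Between breeds, more of these genes were lower in Hu than was usual in the table, yet none passed the test. A difference below is Hu minus Mongolian on the log2(FPKM + 1) scale, which understates the change of low genes, and a lower or higher mean is one of log2(FPKM + 1). Of the 62 tested genes, 54 had a lower and 8 a higher mean in Hu, and the median difference was -0.57; over all genes tested 67.7% were lower in Hu and the median was -0.28. By plain mean FPKM, 48 were lower and 14 higher in Hu, and the share of all genes by that measure is not given here. After quantile normalization 42 were lower and 20 higher, where 48.7% of all genes were lower. With the count of genes each library listed as a covariate 44 were lower and 18 higher, beside 48.3% of all genes lower. Without Hu 1, 46 were lower and 16 higher, beside 49.2% of all genes lower. The same counts without Hu 2 stood beside 60.7% of all genes lower. Without Hu 3, 60 were lower and 2 higher, beside 81.9% of all genes lower. A limma Benjamini-Hochberg adjusted p under 0.05 was reached by 0 of the 62 genes and by 0% of all 9971, and every one of the 62 had an adjusted p of 0.998 or more. Unadjusted, 2 of the 62 (SIRT2 and KAT5) were under 0.05, beside 3.73% of all genes.

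For 12 of the 62 genes every Hu value lay below every Mongolian value, which is 19.4% of them, beside 6.05% of all genes tested. The reverse, every Hu value above every Mongolian value, occurred in 0 of the 62, beside 1.88% of all genes. With a mean of at least 5 FPKM over the 6 libraries, 8 of 28 enzyme genes were lower in every Hu library, beside 4.96% of the 3545 genes at that level. The 12 genes were DNMT3A, KMT2A, KMT2B, KMT2C, KMT2D, SETD1A, KDM2B, KDM4B, KDM6B, EP300, KAT6B and SIRT2. For a single gene, an exact permutation test of 3 against 3 libraries cannot give a p below 0.1.

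Scaling between libraries decided which of the 12 stayed apart. After median-of-ratios scaling 8 of 62 enzyme genes were lower in every Hu library, beside 8.22% of all genes, and 5 of them were among the 12: DNMT3A, SETD1A, EP300, KAT6B and SIRT2. After quantile normalization there were 7, beside 5.61% of all genes, and 4 were among the 12: DNMT3A, EP300, KAT6B and SIRT2. After rescaling to a common sum without the 2 dominant rows there were 15, beside 10.7%, and 7 were among the 12. KMT2B, KMT2D, KDM2B, KDM4B and KDM6B overlapped between breeds under all 3 scalings. CREBBP and KAT5 overlapped as deposited and did not overlap under any of the 3. The mean stayed lower in Hu for each of the 12 under each of these scalings. Without a library in turn it could not turn out otherwise, since every Hu value lay below every Mongolian value. Without Hu 3 the count was 32 of 62, beside 32% of all genes.

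**Figure D3:**
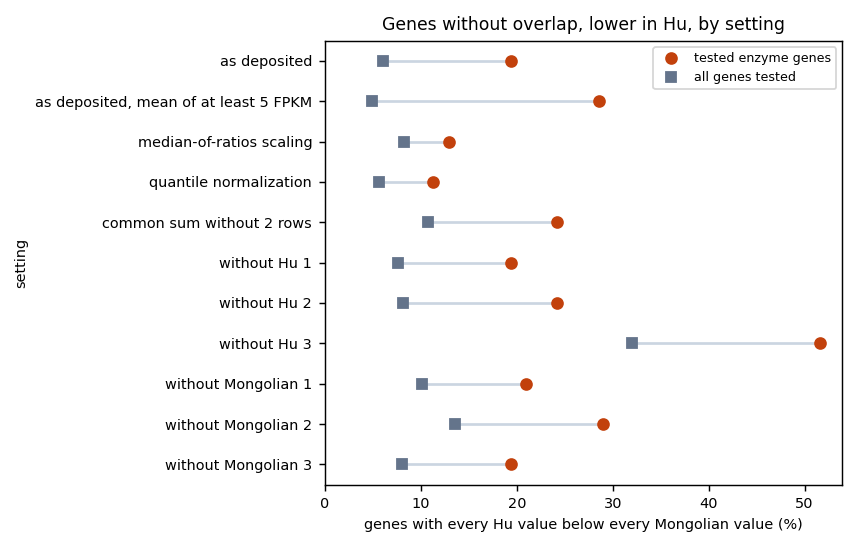
Percent of genes with every Hu value below every Mongolian value (x axis) under each setting (y axis), for the tested enzyme genes (orange circles) and for all genes tested (grey squares). The enzyme genes had 19.4% as deposited and 11.3% after quantile normalization, against 6.05% and 5.61% of all genes.

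Among the genes that write DNA methylation, DNMT3A, which methylates unmarked cytosines, was separate between breeds. It had 4.09, 5.18 and 5.30 FPKM in Hu, against 11.1, 7.21 and 19.04 FPKM in Mongolian. The difference was -1.11 ± 0.61 (SE), with a 95% confidence interval from -2.40 to 0.18 and a limma adjusted p of 0.998, and it ranged from -1.42 to -0.78 over the scalings and the libraries left out. DNMT1, which copies methylation after replication, had 4.18, 1.77 and 7.83 FPKM in Hu, against 5.09, 3.86 and 6.71 FPKM in Mongolian, with overlap. DNMT3A exceeded DNMT1 in every Mongolian library, by 2.19, 1.87 and 2.84 times; the ratio was 0.979, 2.92 and 0.677 in Hu. DNMT3B and DNMT3L had no row by symbol.

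The 3 TET genes, which start the removal of DNA methylation, all had lower means in Hu, and in each the breeds overlapped. TET2 had 5.32, 3.64 and 3.23 FPKM in Hu, against 3.56, 4.80 and 10.7 FPKM in Mongolian. TET1 had 1.34, 0.656 and 4.93 FPKM in Hu, against 4.57, 3.29 and 2.49 FPKM in Mongolian. TET3, the form best known from the oocyte and zygote, had 0.0959, 3.04 and 0.521 FPKM in Hu, against 2.13, 1.62 and 5.48 FPKM in Mongolian. Its difference was -0.99 ± 0.77 (SE; limma adjusted p = 0.998), and Hu 2 lay above 2 of the 3 Mongolian libraries. No TET gene was at 0 in any library.

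The methyltransferases of histone H3 lysine 4, a mark of promoters and enhancers, were the class with the most genes apart between breeds in the values as deposited, but not after scaling. The class of 7 counts KMT2E by family, a relative without known methyltransferase activity on histones. All 7 were listed in all 6 libraries, and 5 of the 7 were lower in every Hu library as deposited. All 7 kept a lower mean in Hu under each scaling and without each library in turn. For the 5 apart, the outcome without a library was fixed in advance. The median difference of the 7 was -0.77, which is 0.49 below the median of all genes. That gap ranged over the scalings, the covariate and the libraries left out. It was 0.20 at the smallest (without Hu 3) and 0.73 at the largest (with listed genes as a covariate). The 5 became 0 on quantile-normalized values, 1 by median-of-ratios scaling and 4 with sums made equal, whereas the acetyltransferases apart between breeds numbered 2 of 10 as deposited and 5, 4 and 5 under the same scalings. None of the 7 passed the test.

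KMT2D, which with KMT2C places the monomethyl mark on enhancers, had 3.27, 3.35 and 2.84 FPKM in Hu, against 6.45, 3.67 and 12.3 FPKM in Mongolian. Its difference was -0.90 ± 0.67 (SE; limma adjusted p = 0.998). KMT2C had 3.15, 3.61 and 3.63 FPKM in Hu, against 6.41, 4.51 and 10.6 FPKM in Mongolian. KMT2A, known from leukaemia translocations and from HOX gene control, had 3.81, 3.98 and 5.01 FPKM in Hu, against 8.22, 5.59 and 10.8 FPKM in Mongolian. KMT2B, which mouse oocytes need for their bulk trimethyl mark, had 1.99, 2.15 and 2.54 FPKM in Hu, against 3.48, 2.76 and 6.10 FPKM in Mongolian. SETD1A, a writer of the trimethyl mark at promoters, had 1.18, 2.04 and 2.14 FPKM in Hu, against 3.49, 3.11 and 4.74 FPKM in Mongolian.

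In these 5 genes Mongolian 3 was highest and Mongolian 2 lowest of its breed, and the lowest Mongolian value exceeded the highest Hu value by 1.45 times for SETD1A, 1.24 for KMT2C, 1.11 for KMT2A, 1.10 for KMT2D and 1.09 for KMT2B. Their proportions to each other varied less than their levels. KMT2D over KMT2C was 1.04, 0.928 and 0.781 in Hu, against 1.01, 0.815 and 1.16 in Mongolian. KMT2C over KMT2A was 0.826, 0.908 and 0.724 in Hu, against 0.779, 0.807 and 0.983 in Mongolian.

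The other members of the class were its most abundant, and both were highest in Hu 3. SETD7, which monomethylates lysine 4 and many proteins other than histones, had 9.70, 9.07 and 31.99 FPKM in Hu, against 14.5, 29.1 and 30.2 FPKM in Mongolian. KMT2E, a relative without known methyltransferase activity on histones, had 6.50, 8.05 and 20.1 FPKM in Hu, against 12.2, 14.04 and 15.8 FPKM in Mongolian. In both, Hu 1 and Hu 2 lay below every Mongolian library and Hu 3 above every one. KMT2E over KMT2A was 1.70, 2.02 and 4.02 in Hu, against 1.48, 2.51 and 1.47 in Mongolian.

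**Figure D4:**
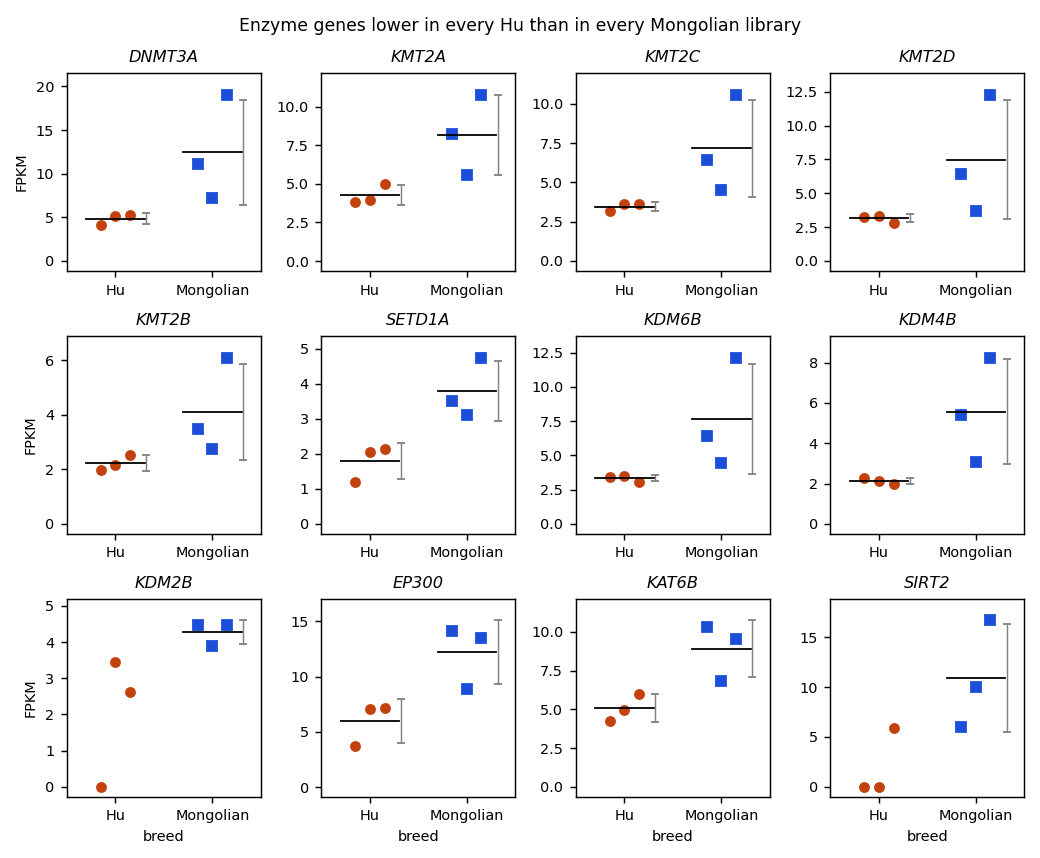
FPKM (y axis) of the 12 enzyme genes that were lower in every Hu library (orange circles) than in every Mongolian library (blue squares). Black lines are means and grey bars ± SD (n = 3), left out where a library was listed at 0; KMT2A to KMT2D lie within a narrow range in Hu and are spread in Mongolian.

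Writers of the repressive and other lysine marks overlapped between breeds. EZH1, a catalytic subunit of Polycomb repressive complex 2 that methylates lysine 27, was listed at 0 in Hu 1 and at 3.35 and 11.6 FPKM in Hu 2 and Hu 3, against 7.22, 6.22 and 10.4 FPKM in Mongolian. Its difference was -1.21 ± 0.84 (SE; limma adjusted p = 0.998), and EZH2 had no row by symbol. KMT5A, which monomethylates lysine 20 of histone H4, had 10.1, 2.01 and 6.37 FPKM in Hu, against 5.59, 5.32 and 5.43 FPKM in Mongolian. It was nearly constant over Mongolian, and Hu 1 and Hu 2 lay on either side of it. KMT5B, which adds further methyl groups to the same lysine, had means of 5.18 ± 2.54 FPKM in Hu, against 5.15 ± 2.11 FPKM in Mongolian (SD, n = 3 each). KMT5C, its close relative, was at 0 in Hu 1 and in Mongolian 1 and reached 1.35 FPKM in Hu, against 6.57 FPKM in Mongolian.

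Of the remaining SETD genes, SETD5 had 6.54, 3.42 and 11.2 FPKM in Hu, against 12.3, 8.13 and 12.5 FPKM in Mongolian. SETD3, a histidine methyltransferase of actin, had 3.54, 1.65 and 8.06 FPKM in Hu, against 3.48, 4.08 and 6.70 FPKM in Mongolian. SETD6, which methylates the NF-kappaB subunit RELA, was at 0 in Hu 1 and Hu 2 and at 1.33 FPKM in Hu 3, against 0.967, 2.95 and 0.961 FPKM in Mongolian. Its difference was -0.90 ± 0.61 (SE; limma adjusted p = 0.998). The breeds overlapped in all 3 genes, through Hu 3 in SETD5 and SETD6. In SETD3 the overlap came from Hu 1, and Hu 3 lay above every Mongolian library.

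Lysine demethylases had a lower mean log2(FPKM + 1) in Hu for 14 of 15 genes (13 by plain mean FPKM), with a median difference of -0.61, and 3 of the 15 were apart between breeds. The 14 of 15 became 12 after quantile normalization and without Hu 1, and 15 after rescaling to a common sum. KDM4B, which removes methyl groups from lysine 9 and is induced by oestrogen receptor in breast cancer cells, had 2.25, 2.11 and 1.96 FPKM in Hu, against 5.40, 3.05 and 8.25 FPKM in Mongolian. Its difference was -1.00 ± 0.70 (SE; limma adjusted p = 0.998). KDM6B, a demethylase of lysine 27, had 3.42, 3.47 and 3.07 FPKM in Hu, against 6.43, 4.40 and 12.1 FPKM in Mongolian. KDM2B, which recruits a Polycomb complex to CpG islands, was at 0, 3.44 and 2.62 FPKM in Hu, against 4.46, 3.90 and 4.46 FPKM in Mongolian. As deposited, the SD over Hu was 0.148 FPKM for KDM4B and 0.219 FPKM for KDM6B, against 2.61 and 4.01 FPKM over Mongolian. The SD after scaling between libraries is not given here, and both genes overlapped between breeds under each scaling.

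KDM6A, the X-linked relative of KDM6B, overlapped between breeds as deposited. It was at 0, 1.29 and 6.19 FPKM in Hu, against 3.58, 2.25 and 2.69 FPKM in Mongolian, so that KDM6B over KDM6A was 2.69 and 0.496 in Hu 2 and Hu 3 and 1.79, 1.96 and 4.52 in Mongolian. KDM2A, a lysine 36 demethylase and the most abundant of the class, had 2.68, 8.17 and 5.98 FPKM in Hu, against 8.79, 6.53 and 13.8 FPKM in Mongolian. KDM5B, which removes the lysine 4 mark, had 2.49, 4.87 and 6.36 FPKM in Hu, against 6.29, 4.33 and 13.5 FPKM in Mongolian. The other KDM5 genes, KDM5A and KDM5C, averaged 5.29 ± 2.87 and 4.40 ± 2.47 FPKM in Hu, against 5.62 ± 0.781 and 7.99 ± 2.86 FPKM in Mongolian (SD, n = 3 each). KDM1A, which acts on lysine 4 with the corepressor RCOR1, was at 0, 3.20 and 8.85 FPKM in Hu, against 2.78, 4.01 and 2.20 FPKM in Mongolian.

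Arginine methyltransferases showed no common side. Their median difference was -0.28, equal to that of all genes to 2 decimals, with 5 of 7 lower in Hu as deposited, 2 of 7 after quantile normalization and 2 of 7 without Hu 1. PRMT1, which makes most of the asymmetric dimethylarginine in mammalian cells, had 3.92, 8.36 and 11.99 FPKM in Hu, against 9.12, 5.52 and 8.57 FPKM in Mongolian. PRMT5, the main enzyme for the symmetric mark, was at 1.57, 0 and 3.65 FPKM in Hu, against 2.14, 2.59 and 8.09 FPKM in Mongolian, a difference of -1.03 ± 0.81 (SE; limma adjusted p = 0.998). PRMT7, which makes monomethylarginine, was at 0, 4.24 and 4.90 FPKM in Hu, against 4.77, 3.80 and 1.76 FPKM in Mongolian. PRMT6 had the most positive difference of all 62 genes (0.50), with 1.37, 4.68 and 2.79 FPKM in Hu, against 2.90, 0.525 and 2.02 FPKM in Mongolian, which overlapped.

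Acetyltransferases had lower means in Hu for 9 of 10 genes, with a median difference of -0.65, which is 0.37 below that of all genes. The 9 of 10 became 8 after median-of-ratios scaling and after quantile normalization, and 7 without Hu 1. CREBBP and EP300, the paralogous coactivators that acetylate enhancers, were the most abundant by mean level. EP300 had 3.70, 7.07 and 7.18 FPKM in Hu, against 14.2, 8.87 and 13.5 FPKM in Mongolian, a difference of -0.94 ± 0.59 (SE) with a 95% confidence interval from -2.19 to 0.32. CREBBP had 4.94, 6.70 and 9.29 FPKM in Hu, against 19.01, 8.51 and 19.2 FPKM in Mongolian, a difference of -1.01 ± 0.59 (SE) with an interval from -2.26 to 0.24. For both the limma adjusted p was 0.998. Hu 3 lay above Mongolian 2 in CREBBP by less than 1 FPKM, and no other Hu library overlapped.

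The ratio of CREBBP to EP300 varied less than the level of either gene. It was 1.34, 0.947 and 1.29 in Hu, against 1.34, 0.960 and 1.42 in Mongolian, while each gene on its own ranged over a far wider span. KAT6B, a subunit of a histone H3 acetyltransferase complex, had 4.22, 4.96 and 6.01 FPKM in Hu, against 10.3, 6.85 and 9.56 FPKM in Mongolian, without overlap. Its paralog KAT6A had 3.28, 4.39 and 9.63 FPKM in Hu, against 9.36, 5.97 and 10.8 FPKM in Mongolian, with overlap through Hu 3.

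KAT5 (TIP60), the catalytic subunit of the NuA4 complex that acts in DNA repair and at promoters, was listed at 0 in Hu 1 and Hu 2 and at 3.62 FPKM in Hu 3. In Mongolian it had 5.36, 3.61 and 16.1 FPKM, so Hu 3 and Mongolian 2 were level. Its difference was -2.25 ± 0.84 (SE), with an unadjusted p of 0.0169 in limma and an adjusted p of 0.998. With limma array weights, which put 3.64 on Hu 2 and 0.412 and 0.25 on Hu 1 and Hu 3, the adjusted p was 0.0203, where 6.35% of all genes were called. KAT2B (PCAF), in contrast, was highest in Hu 3 at 18.5 FPKM and had 3.99 and 3.67 FPKM in Hu 1 and Hu 2, against 4.34, 7.51 and 7.90 FPKM in Mongolian.

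**Figure D5:**
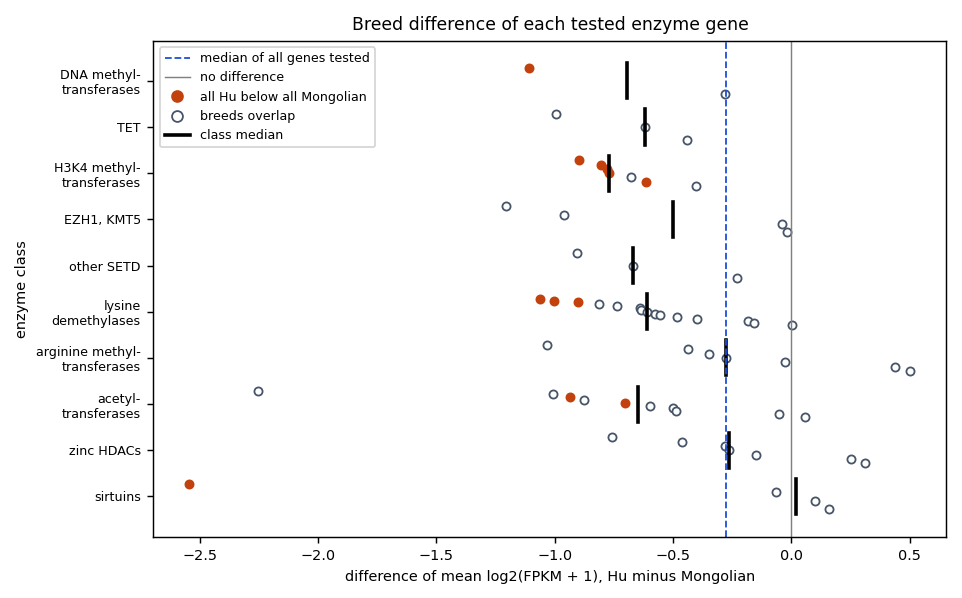
Difference of mean log2(FPKM + 1), Hu minus Mongolian (x axis), of each tested enzyme gene (circles) by class (y axis), with class medians (black bars), the median of all genes (dashed line at -0.28) and 0 (grey line). Filled circles are the 12 genes lower in every Hu library, 5 of them among the H3K4 methyltransferases, and the deacetylase and arginine methyltransferase medians lie at the dashed line.

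Zinc-dependent deacetylases lay at the level of all genes, with a median difference of -0.26 and 5 of 7 lower in Hu (3 of 7 after quantile normalization). HDAC2 and HDAC1, the paired catalytic subunits of the SIN3, NuRD and CoREST corepressors, were among the most abundant enzyme genes. HDAC2 had 19.5, 11.03 and 37.4 FPKM in Hu, against 17.2, 18.5 and 12.9 FPKM in Mongolian. HDAC1 had 7.48, 7.49 and 27.4 FPKM in Hu, against 16.5, 10.1 and 26.4 FPKM in Mongolian. The breeds overlapped in both, and the difference was 0.31 for HDAC2 (95% confidence interval from -0.88 to 1.51) and -0.46 for HDAC1 (from -1.79 to 0.87). HDAC2 over HDAC1 was 2.61, 1.47 and 1.36 in Hu, against 1.05, 1.83 and 0.487 in Mongolian.

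HDAC5, a class IIa enzyme that shuttles between nucleus and cytoplasm, averaged 9.53 ± 4.57 FPKM in Hu, against 11.1 ± 2.72 FPKM in Mongolian (SD, n = 3 each). HDAC8 was at 0, 0 and 1.5 FPKM in Hu, against 0, 4.07 and 1.37 FPKM in Mongolian, and had the smallest p of its class, with a difference of -0.76 ± 0.68 (SE; limma adjusted p = 0.998). HDAC3, a class I enzyme of nuclear corepressor complexes, stayed at or under 2.75 FPKM in Hu, against 1.99 FPKM in Mongolian. HDAC10 was above 0 in Hu 2 and Hu 3 (2.91 and 0.380 FPKM) and in no Mongolian library. HDAC4, HDAC9 and HDAC11 had no row by symbol.

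Sirtuins were low and often listed at 0, and none of the 6 was above 0 in all 6 libraries. SIRT2, a mainly cytoplasmic deacetylase of tubulin and histone H4, had the highest mean level of the 6 and the smallest p of all 62 genes. It was at 0 in Hu 1 and Hu 2 and at 5.85 FPKM in Hu 3, against 5.99, 9.99 and 16.7 FPKM in Mongolian. The breeds did not overlap, but Hu 3 lay just under Mongolian 1, and the lowest Mongolian value was 1.02 times the highest Hu value. The difference was -2.54 ± 0.84 (SE), with a 95% confidence interval from -4.33 to -0.76, an unadjusted p of 0.00824 in limma and an adjusted p of 0.998. With array weights the limma adjusted p was 0.0111, and over all alternatives the adjusted p ran from 0.0111 to 0.99997.

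SIRT5, a mitochondrial desuccinylase, was at 7.32, 0 and 2.94 FPKM in Hu, against 2.40, 2.19 and 1.17 FPKM in Mongolian. SIRT1, the nuclear deacetylase of histones and of p53, was at 0, 1.09 and 7.17 FPKM in Hu, against 1.20, 2.73 and 1.38 FPKM in Mongolian. SIRT3 reached 1.18 FPKM in Hu, against 0.874 FPKM in Mongolian. SIRT6 was above 0 in Hu 3 alone (1.30 FPKM) and SIRT4 in Mongolian 2 alone (1.12 FPKM).

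Of the 12 genes that were apart between breeds, 10 were listed in all 6 libraries, and KDM2B and SIRT2 were each at 0 in at least 1 Hu library. A gene apart in this direction must be above 0 in all 3 Mongolian libraries, and 40 of the 57 enzyme genes of which that holds were listed in all 6. The gap between breeds was small, the lowest Mongolian value being 1.02 to 1.45 times the highest Hu value, with a median of 1.19. In contrast, 27 of the 67 genes were highest in Hu 3 and 26 in Mongolian 3. Hu 3 lay above the Mongolian mean in 38 of the 67 genes, Hu 2 in 11 and Hu 1 in 5.

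Partners of these enzymes, taken from 8 lists written with earlier results of these data known, were apart between breeds at about the rate of all genes. Of 138 genes on the lists 115 were in the table and 108 were tested, and 0 passed the limma test in either direction. Unadjusted, 1 was under a limma p of 0.05, beside 3.73% of all genes. Of the 108, 6 were lower in every Hu library (5.56%, near the 6.05% of all genes) and 3 were higher, beside 1.88% of all genes. The median difference was -0.40, beside -0.28 over all genes, and 86 of 108 were lower in Hu, beside 67.7% of all genes. The count was 64 after quantile normalization, 63 with the covariate and 70 without Hu 1, beside 48.7%, 48.3% and 49.2% of all genes. The difference between the partners and the enzymes was not tested.

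Among the genes with the smallest p in each list, JADE2, a scaffold of the KAT7 complex, had 2.87, 0 and 3.84 FPKM in Hu, against 10.04, 3.66 and 10.1 FPKM in Mongolian. CXXC1, which brings SETD1 complexes to CpG islands, had 1.58, 11.01 and 7.46 FPKM in Hu, against 10.8, 5.89 and 19.5 FPKM in Mongolian. SMYD2, a methyltransferase of histone H3 and p53, was at 0, 0 and 11.01 FPKM in Hu, against 3.74, 5.95 and 5.03 FPKM in Mongolian. PHF19, a Polycomb partner, was at 0, 0 and 2.22 FPKM in Hu, against 0.920, 0.824 and 2.40 FPKM in Mongolian.

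The other side was taken by GADD45A and CBX3. GADD45A, a stress-induced gene linked to active DNA demethylation, had 36.1, 48.4 and 61.1 FPKM in Hu, against 10.8, 29.1 and 28.5 FPKM in Mongolian, without overlap. Its difference was 1.15 ± 0.53 (SE), with an unadjusted p of 0.0457 in limma and an adjusted p of 0.998. CBX3, a reader of lysine 9 methylation, had 18.5, 15.02 and 28.7 FPKM in Hu, against 0, 21.5 and 12.1 FPKM in Mongolian, with overlap.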

How the data were processed

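Polyadenylated RNA was sequenced in 6 sheep ovary libraries after preparation with a SMARTer kit, per the labels' protocols. The authors deposited a gene table in FPKM with 1 column per library; groups come from the sample titles and columns from the codes in the descriptions. The aligner, the counter and the genome build are not given in these sources, and the depth per library is unknown, so precision was judged from replicate spread alone. The lncRNA table was not used. Every table column had a sample. Members, gene lists and tests were chosen with earlier results of these data known. The 9971 genes that reached 0.5 FPKM in 3 or more libraries were fitted on log2(FPKM + 1) with limma 3.58.1 in R 4.3.3 (breed as the only factor, eBayes with a trend, two-sided, Benjamini-Hochberg over all genes tested; call at 0.05). The fit was tested on simulated data. No count model was used. No sequence is printed, since none was in the files used. Members named with values were the 2 most abundant and the smallest p of each class, those without overlap between breeds and close relatives; KMT5B, KMT5C, KDM1A, KDM5A, KDM5C, KAT2B, KAT6A, PRMT6, HDAC3, HDAC5, HDAC10, SIRT1, SIRT3, SIRT4 and SIRT6 were added after their values were seen. Alternatives were other pseudocounts, filters, scalings, eBayes settings, array weights, a replicate block, listed genes as a covariate and left-out libraries. Added later were the common-sum scaling, the background at 5 FPKM, and the counts of lower means and of genes without overlap under each setting. Some genes of the partner lists are not reported here.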

Additional observations from a re-analysis of the deposited data

How the results depend on the processing

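The median difference of the tested enzyme genes stayed below that of all genes under every alternative run. It ranged from -0.91 (pseudocount of 0.01) to -0.27 (listed genes as a covariate), beside -0.79 and 0.03 for all genes. The gap to all genes was -0.29 as reported, -0.40 with a filter at 5 FPKM and -0.12 with a pseudocount of 0.01. The median moved by less than the spread between libraries, an SD of 0.42 for the library medians of the enzyme genes. Genes called over the whole table numbered 0, but 633 with array weights and 6 without Hu 1 and Hu 3 together, and 0 to 4 with 1 library left out. Enzyme genes called numbered 0, but 2 with array weights (SIRT2 and KAT5). Enzyme genes at an unadjusted p under 0.05 numbered 2 as reported, 1 with a filter at 5 FPKM, 3 with library sums made equal, 12 with array weights (beside 27.5% of all genes), 4 without Hu 1 and Hu 3, and 1 to 8 with 1 library left out; 8, without Hu 3, stood beside 15.4% of all genes. Enzyme genes lower in every Hu library numbered 12, but 5 (of 25 tested, beside 4.75% of all genes) with a filter at 5 FPKM. They numbered 7 after quantile normalization, 8 by median-of-ratios scaling and 15 with sums made equal, beside 5.61%, 8.22% and 10.7% of all genes. They numbered 41 without Hu 1 and Hu 3 (beside 42.6% of all genes) and 12 to 32 with 1 library left out. A filter can only remove genes from this count, and a left-out library can only add them. How many were added differed by library. The count was 12, 15 and 32 without Hu 1, Hu 2 and Hu 3, beside 7.6%, 8.16% and 32% of all genes. It was 13, 18 and 12 without Mongolian 1, 2 and 3, beside 10.1%, 13.6% and 8.08% of all genes. The cause of these changes was not tested. Of 209 fitted values of the 12 enzyme genes given with a p, 205 kept direction and side of the threshold. Many of these could not change direction. Filters, eBayes settings and the replicate block leave a difference as it is, and a left-out library cannot turn that of a gene without overlap. TET3 turned to 0.011 with array weights and 0.10 without Hu 1 and Hu 3 (from -1.54 over the left-out libraries). SIRT2 and KAT5 passed with array weights. The replicate numbers do not pair the libraries: deviations of libraries with the same number correlated at -0.01, -0.03 and -0.18. With the replicate number as a block, 0 genes were called, 2 enzyme genes had an unadjusted p under 0.05 and their median difference was -0.57. Depth is unknown, so enzymes at 0 cannot be told from missed ones.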
